A study of Mus musculus with 14 samples.

Results

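A set of 10 genes that mark mast cells was followed through the aortic valve leaflets of 14 mice: Cpa3, Cma1, Mcpt4, Tpsb2, Tpsab1, Kit, Fcer1a, Ms4a2, Hdc and Gata2. They were taken by symbol from a table of 56941 genes, all 10 were found, and all 10 reached the mean of 10 counts per library that was required for the fit. Tph1 and Slc18a2, which mast cells can express and which handle serotonin, were set beside them in each library. The rule that named the genes used no level, fold or p, but the genes were proposed with earlier results of the same libraries known, so their values are given as a description.

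All mice were male C57BL/6J wild type animals, 8 weeks old at the start, and all were kept on a Breslow Western Diet, which raises cholesterol. Ctrl mice (n = 4) were untreated. AngII mice (n = 4) received angiotensin II, a hormone that raises blood pressure, at 1000 ng/kg/min from an osmotic pump for 28 days. LY mice (n = 2) received LY272015, which blocks the serotonin receptor HTR2B, at 3 mg/kg by intraperitoneal injection, and AngII+LY mice (n = 4) received both. By the sample records the pumps of AngII and AngII+LY mice were taken out 48 hours before the tissue was collected, while the study's methods give this for a subset only. LY272015 was given every other day according to one record and 2 times a week according to another, and 4 of the 6 dosed mice carry a compound name that differs from LY272015 in its last digit. They were grouped by their titles. The hearts were perfused with PBS, the leaflets were dissected, and RNA of each mouse was sequenced as its own library.

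Mast cells are resident immune cells that store proteases, histamine, proteoglycans and, in rodents, serotonin in granules. They depend on the receptor KIT and its ligand, carry the high affinity IgE receptor, and release their granules when that receptor or other surface receptors are engaged. Mouse mast cells of connective tissue are known for chymases, tryptases and carboxypeptidase A3. In these rodent cells serotonin is made by the tryptophan hydroxylase TPH1 and loaded into vesicles by the vesicular monoamine transporter SLC18A2.

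The transcription factor GATA2, itself among the 10 genes, binds DNA at GATA motifs and is needed for mast cells to form. The 250 bases upstream of the start were read for the 3 proteases that have an entry in the RefSeq promoter table (build GRCm38.p6). Cma1 and Mcpt4 are shown as proteases whose levels ran together over the libraries (Pearson's r of 0.59). Cpa3 is shown as the remaining protease with an entry, and its level did not run closely with theirs (r of 0.40 with Cma1 and 0.10 with Mcpt4). Fcer1a and Hdc also have an entry and ran closer together (r of 0.77), but they are not proteases and are not shown. Capitals mark each GATAA, or TTATC where the motif lies on the other strand. Tpsb2 and Tpsab1 have no entry.

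Cpa3, chr3:20242182-20242431, minus strand: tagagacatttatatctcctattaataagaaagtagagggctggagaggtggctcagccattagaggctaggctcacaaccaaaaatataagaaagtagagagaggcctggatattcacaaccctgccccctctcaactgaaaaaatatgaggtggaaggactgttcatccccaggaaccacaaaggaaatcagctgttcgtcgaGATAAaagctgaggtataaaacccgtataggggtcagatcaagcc
Cma1, chr14:55944676-55944925, minus strand: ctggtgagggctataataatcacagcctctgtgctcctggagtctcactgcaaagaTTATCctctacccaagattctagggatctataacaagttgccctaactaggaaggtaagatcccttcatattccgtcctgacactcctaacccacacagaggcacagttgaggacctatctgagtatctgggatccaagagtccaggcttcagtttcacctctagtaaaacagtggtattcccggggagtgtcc
Mcpt4, chr14:56062311-56062560, minus strand: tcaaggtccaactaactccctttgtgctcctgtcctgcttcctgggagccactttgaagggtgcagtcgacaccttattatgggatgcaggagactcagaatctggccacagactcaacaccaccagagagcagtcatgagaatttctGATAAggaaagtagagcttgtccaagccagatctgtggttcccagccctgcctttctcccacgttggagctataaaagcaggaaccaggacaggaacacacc

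Each of the 3 windows held the motif once. Of the 8 members with an entry, 5 held it in at least 1 entry, as did 1 of the 2 companion genes, Slc18a2. Hdc, Kit and Gata2, which are not shown, did not hold it. Among all 32851 entries of the same length 22.6% held it on either strand. That share counts entries, while members and companions are counted as genes, of which Kit, Gata2 and Tph1 have more than 1 entry. A match describes letters and is not a binding site.

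The libraries held 20990655 to 73128220 counts on genes, the fewest in AngII 4. To give the normalized counts below, the count of a gene was scaled by the library size after TMM normalization, taken relative to the average library. The mitochondrial share of counts was 4.0 to 7.52% for Ctrl and 8.62 to 9.76% for LY libraries. For AngII libraries it was 9.83 to 25.5% and for AngII+LY libraries 10.1 to 20.2%, so it was higher in every AngII library than in every Ctrl library. All 6 markers of valve interstitial cells and all 6 of endothelium were counted in every group, as the label of the tissue would have it, and so were all 6 of cardiomyocytes and all 6 of adipocytes. The summed adipocyte markers ranged from 6354 to 14400 normalized counts in Ctrl and from 996 to 4866 in AngII libraries, and the summed cardiomyocyte markers from 307300 to 814300 in AngII and from 824900 to 2012000 in AngII+LY libraries. The part of these shifts in the values of the mast cell genes was not tested. In bulk tissue, fewer mast cells and less RNA of a gene per mast cell cannot be told apart.

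The defining proteases were present at moderate levels. Per kilobase of merged exons in Ctrl mice, Cma1 stood at 431 ± 163 normalized counts (SD, n = 4), Mcpt4 at 276 ± 112, Tpsb2 at 203 ± 89.0 and Cpa3 at 138 ± 54.6, which placed them above 54.3 to 77.5% of the 19043 tested genes with a length. Hdc followed at 94.5 ± 27.8 and Kit at 36.5 ± 13.7 per kilobase. Tpsab1, Fcer1a and Ms4a2 stood at 9.56 ± 10.5, 9.35 ± 11.7 and 4.83 ± 6.37 per kilobase, each with at least 1 Ctrl library at 0. Gata2 was the highest at 1022 ± 432 per kilobase. Neighbours in this order overlapped in their Ctrl ranges, with 2 exceptions. Gata2 ranged from 609 to 1520 and Cma1 from 207 to 571, and Hdc ranged from 64.6 to 131 and Kit from 19.0 to 48.2. Markers of basophils, which share several of these genes, were set beside them. Mcpt8, a basophil protease, had 6 counts in Ctrl 1 and none in the other libraries. Prss34, another protease that basophils carry, was counted in all 4 Ctrl libraries with 37.8 ± 17.1 normalized counts (SD, n = 4), in 1 of the LY, in 2 of the AngII and in all 4 AngII+LY libraries. Il4 and Il3ra, which other cells express as well, were counted in every library. The part of basophils in the values of the shared genes was not tested.

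**Figure D1:**
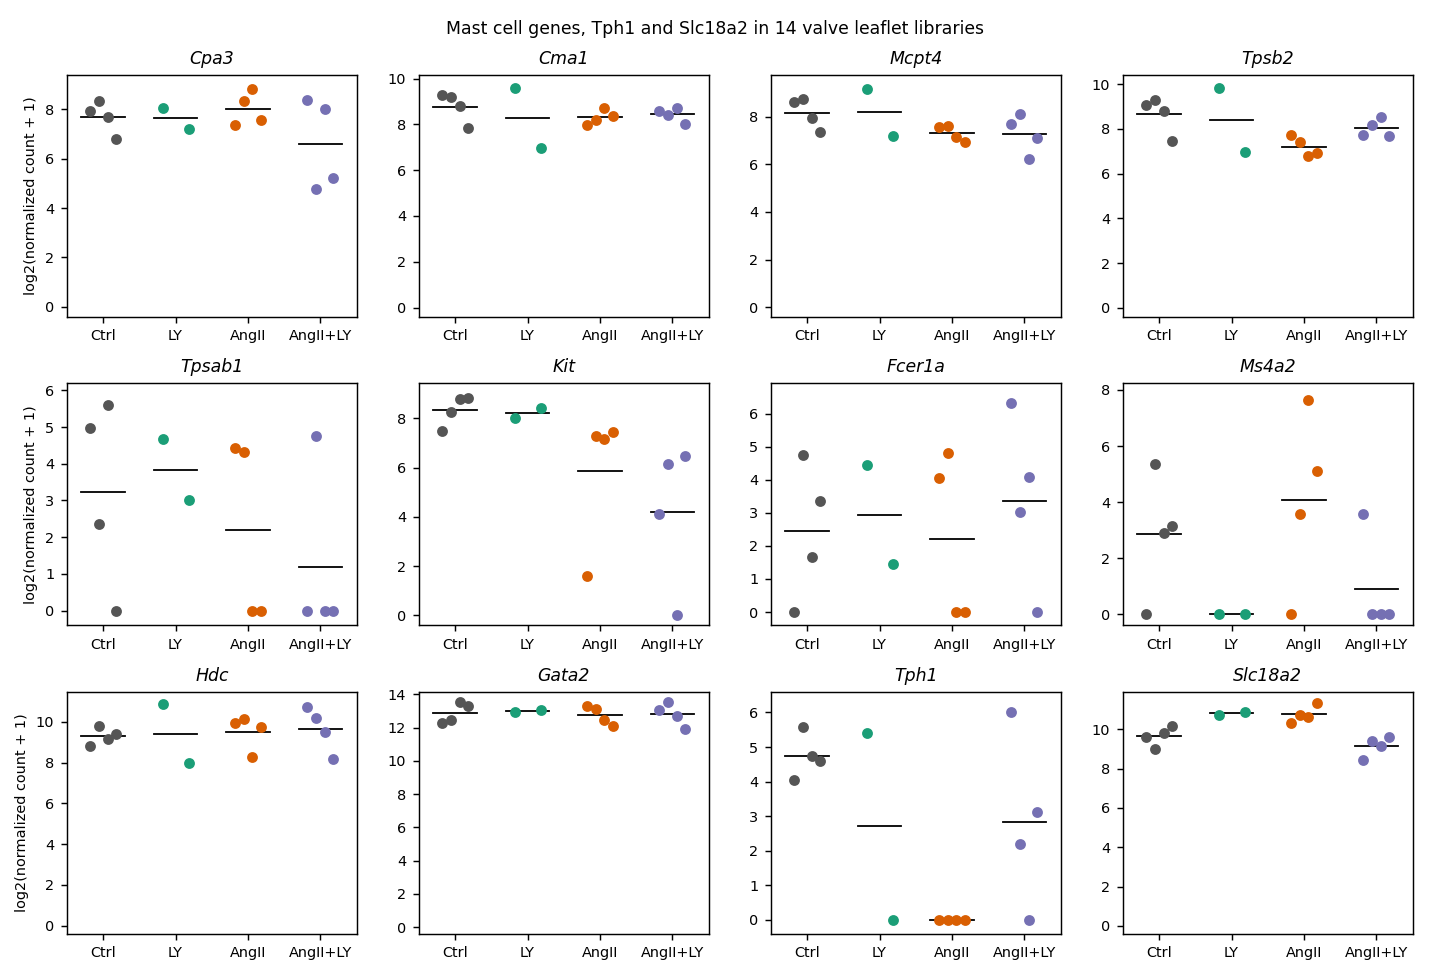
Levels of the 10 mast cell genes, Tph1 and Slc18a2. Each point is 1 library, the y axis is log2(normalized count + 1) from just under 0, and the black line is the group mean on that scale. Kit was lower in every AngII and AngII+LY library than in every Ctrl library, Tph1 was at 0 in the 4 AngII libraries, and the other members overlapped between AngII and Ctrl.

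The chymases are serine proteases of the granule, and Cma1 and Mcpt4 lie close together on chromosome 14 (GRCm39, chr14:56178908-56182132 and chr14:56297086-56299770). Cma1, which encodes mast cell chymase, had 622, 581, 452 and 226 normalized counts in Ctrl, 765 and 124 in LY, 253, 296, 417 and 334 in AngII, and 386, 339, 425 and 261 in AngII+LY libraries. In 3 of the Ctrl libraries Cma1 lay above all AngII libraries, and in Ctrl 4 it lay below them. Mcpt4, the main chymase of mouse connective tissue mast cells, had 392, 426, 243 and 162 in Ctrl, 578 and 147 in LY, 191, 196, 142 and 122 in AngII, and 206, 275, 73.4 and 136 in AngII+LY libraries. For Mcpt4 too, 3 Ctrl libraries lay above all AngII libraries, and Ctrl 4 lay inside their range. The log2 fold change of AngII against Ctrl was -0.53 ± 0.46 (SE) for Cma1 and -0.90 ± 0.50 for Mcpt4. Mcpt4 shares 8.03% of its 50-base stretches with other genes, of which Cma2 shares the most. Cma2 had at most 7.81 normalized counts in Ctrl libraries and 0 in every AngII and AngII+LY library. How reads of the shared stretches were assigned was not tested.

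The tryptases Tpsb2 and Tpsab1 encode the other class of granule serine protease and lie next to each other on chromosome 17 (GRCm39, chr17:25585170-25588079 and chr17:25562212-25564541). Tpsb2 had 541, 621, 445 and 173 normalized counts in Ctrl, 911 and 123 in LY, 209, 171, 109 and 119 in AngII, and 213, 291, 371 and 202 in AngII+LY libraries. All AngII libraries lay under 3 of the Ctrl libraries, while Ctrl 4 lay inside their range. The group mean was 445 ± 195 (SD, n = 4) in Ctrl and 152 ± 46.5 in AngII mice, and the log2 fold change was -1.54 ± 0.54 (SE). With Ctrl 4 left out it was -1.81, and after the libraries were corrected for the GC content of genes it was -0.94. Tpsab1 was near the limit of counting, with 30.4, 4.17, 47.5 and 0 in Ctrl, 24.6 and 7.0 in LY, 20.7, 19.1, 0 and 0 in AngII, and 0, 26.0, 0 and 0 in AngII+LY libraries. It was counted in 8 of the 14 libraries and the groups overlapped. Neither tryptase shared a 50-base stretch with another gene.

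Cpa3 (GRCm39, chr3:20269774-20296362) encodes carboxypeptidase A3, an exopeptidase of the granule. It had 241, 322, 204 and 112 normalized counts in Ctrl, 266 and 148 in LY, 162, 324, 449 and 192 in AngII, and 328, 26.0, 256 and 36.4 in AngII+LY libraries. AngII+LY 2 and AngII+LY 4 were the lowest of all libraries and the other AngII+LY libraries lay among the rest. The log2 fold change was 0.36 ± 0.69 (SE) for AngII against Ctrl and -0.81 ± 0.69 for AngII+LY against AngII. Without AngII 3 the first of these was 0.04, after the GC correction it was -0.10, and without AngII+LY 1 the second was -1.42.

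The proteases did not keep a fixed proportion to each other. The ratio of Cpa3 to Tpsb2, looked at after its values were seen and for that reason not tested, was 0.446, 0.519, 0.459 and 0.647 in Ctrl and 0.777, 1.90, 4.11 and 1.61 in AngII libraries, where every AngII library was above every Ctrl library. In AngII+LY libraries it spread from 0.0894 to 1.54, and in the LY libraries it was 0.292 and 1.21. These ratios are not corrected for GC content. That correction moved the log2 fold change of AngII against Ctrl from 0.36 to -0.10 for Cpa3 and from -1.54 to -0.94 for Tpsb2. How many other pairs of genes separate the groups in this way was not counted. The ratio of Mcpt4 to Cma1 was 0.538 to 0.733 in Ctrl libraries, 0.340 to 0.755 with AngII and 0.173 to 0.811 with AngII+LY, and these groups overlapped.

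Kit (GRCm39, chr5:75735576-75817404) encodes the receptor for stem cell factor, on which mast cells depend, and melanocytes also carry it. It had 180, 306, 440 and 456 normalized counts in Ctrl, 258 and 341 in LY, 2.07, 153, 141 and 172 in AngII, and 16.5, 69.8, 0 and 89.1 in AngII+LY libraries. Every AngII library and every AngII+LY library lay below every Ctrl library. The log2 fold change was -1.57 ± 1.04 (SE) for AngII against Ctrl, -1.39 ± 1.04 for AngII+LY against AngII and -2.96 ± 1.09 for AngII+LY against Ctrl. Without AngII 1, which had 2 counts, the first was -1.15. Of 19145 tested genes 7.56% were lower in every AngII than in every Ctrl library and 4.89% were lower in every AngII+LY than in every Ctrl library, so Kit is 1 of 10 members beside those shares. For AngII+LY against AngII the share was 5.66%, and none of the 10 members was in it.

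Markers of melanocytes were set beside Kit. All 6 were counted in each group, and their sum ran from 646 to 21610 normalized counts in Ctrl libraries. It was 3328 and 7321 in the LY libraries, 322 to 10300 with AngII and 927 to 5635 with AngII+LY, and all groups overlapped. Over the 14 libraries the log2 level of Kit had a Pearson's r of 0.58 with their mean and of 0.54 with the mean of the adipocyte markers, and after the group means were taken out these were 0.49 and 0.13. With the other 9 members r ran from -0.35 (Fcer1a) to 0.46 (Mcpt4), and after the group means were taken out from -0.38 (Cpa3) to 0.47 (Ms4a2). These are descriptions over libraries that share depth and composition, and the part of melanocytes in the Kit values was not tested.

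The IgE receptor was at the edge of detection. Fcer1a encodes its α chain, which binds IgE, and was counted in 10 of the 14 libraries, with 0, 25.8, 2.16 and 9.33 normalized counts in Ctrl, 20.7 and 1.75 in LY, 15.5, 27.2, 0 and 0 in AngII, and 79.6, 7.10, 15.8 and 0 in AngII+LY libraries. Ms4a2, its β chain, was counted in 7 of the 14. It had 0, 40.0, 6.48 and 7.89 in Ctrl, 0 in both LY, 0, 10.9, 199.5 and 33.1 in AngII, and 10.98, 0, 0 and 0 in AngII+LY libraries. AngII 3 alone held most of its counts, and without that library the log2 fold change of AngII against Ctrl was 0.05 where it was 2.15 ± 1.82 (SE) with all libraries. No fold is given for Ms4a2 in LY mice, where both libraries were at 0. The third chain, Fcer1g, which other leukocytes also use, had a mean of 4352 ± 2301 (SD, n = 4) in Ctrl and 4200 ± 3123 in AngII mice, and of 2669 ± 759 (n = 3) in AngII mice without AngII 4.

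Hdc (GRCm39, chr2:126435558-126461318) encodes histidine decarboxylase, which makes histamine. It had 444, 898, 580 and 675 normalized counts in Ctrl, 1891 and 248 in LY, 974, 1123, 308 and 860 in AngII, and 1704, 1172, 718 and 285 in AngII+LY libraries. The highest and the lowest of all 14 libraries were the pair of LY libraries, and no group stood apart. Gata2 (GRCm39, chr6:88170559-88184018) ranged from 4886 to 12180 in Ctrl, was 7880 and 8509 in LY, ranged from 4444 to 9964 in AngII, and reached from 3846 to 11740 in AngII+LY libraries. Its log2 fold change was -0.18 ± 0.37 (SE) for AngII against Ctrl, 0.38 after the GC correction and 0.08 without Ctrl 3, so its direction depended on the processing. GATA2 is also a factor of endothelium, and the level of Gata2 had an r of 0.83 with the mean of the 6 endothelial markers over the 14 libraries and of 0.89 after the group means were taken out. With the other 9 members r ran from -0.20 (Cma1) to 0.49 (Tpsab1) and 0.53 (Fcer1a), and after the group means were taken out from -0.23 (Cma1) to 0.55 (Fcer1a).

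In AngII against Ctrl, 0 of the 10 members passed edgeR's quasi-likelihood test, for which a call needs an adjusted p (Benjamini-Hochberg) under 0.05 together with a log2 fold change beyond 0.5 in either direction, where percent called over all 19145 genes was 0.0. Their adjusted p ran from 0.107 (Tpsb2) to 0.947 in edgeR. At an unadjusted p under 0.05 there was 1 member, Tpsb2, and 4815 of all genes. The median log2 fold change was -0.35 over the members and -0.06 over all genes tested, with 4 members higher and 6 lower. With single libraries left out the members' median ran from -0.61 (without AngII 2) to -0.12 (without Ctrl 3). DESeq2, the method of the study, called Tpsb2 alone (log2 fold change -1.52 ± 0.54, adjusted p = 0.0325) among the 7 members for which it gave an adjusted p, where 18.6% of the genes with an adjusted p were called.

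In AngII+LY against AngII, edgeR called 0 of the 10 members, with percent called at 0.0 over all genes and adjusted p of the members from 0.221 to 0.949. At an unadjusted p under 0.05 stood 1 member, Ms4a2, and 4315 of all genes. The members' median was 0.08 against -0.02 over all genes, with 6 higher and 4 lower, and it ran from -0.21 (without AngII+LY 1) to 0.21 (without AngII+LY 4) when single libraries were left out. DESeq2 called 0 of 7 members, where 14.5% of the genes were called. Tpsb2 had a log2 fold change of 0.82 ± 0.53 (SE), with AngII+LY libraries from 202 to 371 and AngII libraries from 109 to 209, and only AngII 1 reached into the AngII+LY range.

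In AngII+LY against Ctrl, edgeR called 0 of the 10 members and 0.0% of all genes, with adjusted p of the members from 0.344 (Kit) to 0.958. Kit was the 1 member at an unadjusted p under 0.05, beside 2112 of all genes. The median was -0.59 over the members and -0.02 over all genes, with 2 higher and 8 lower. DESeq2 called 0 of 7 members, where 2.48% of the genes were called. AngII, AngII+LY and LY mice were each set against the same Ctrl libraries, so these comparisons are not independent of each other. In LY against Ctrl, edgeR called 0 of the 10 members and 0.0% of all genes, with an adjusted p of 1.0 for each member, 0 members and 266 of all genes at an unadjusted p under 0.05. DESeq2 called 0 of 10 members there, with 0.106% of all genes called. LY 1 and LY 2 were far apart for the proteases and Hdc, which leaves the LY means with wide errors. The difference between the LY272015 effects with and without AngII had adjusted p from 0.742 to 0.979 over the members in edgeR, with 0 members at an unadjusted p under 0.05.

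**Figure D2:**
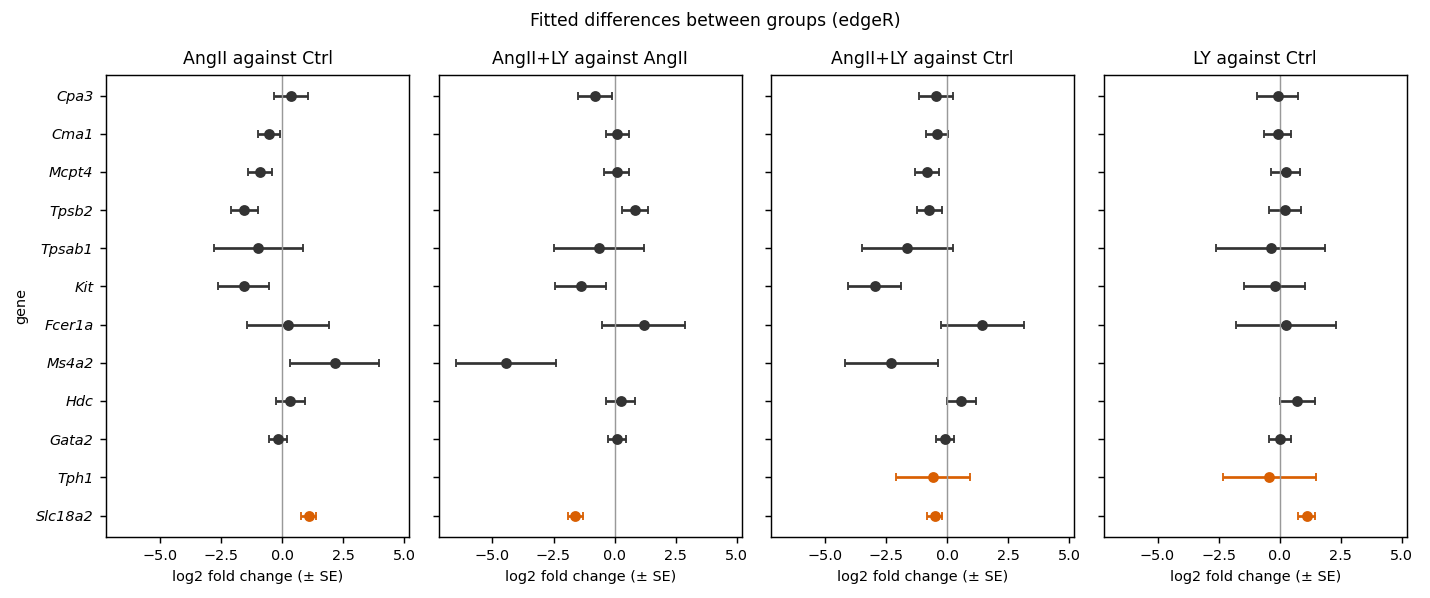
Fitted log2 fold changes with 1 standard error from edgeR for the 10 mast cell genes (dark) and for Tph1 and Slc18a2 (orange) in 4 comparisons. Points are left out where every library of a group was at 0. Slc18a2 was at 1.09 for AngII against Ctrl and -1.60 for AngII+LY against AngII, with shorter bars than the low tryptase Tpsab1 and the IgE receptor genes.

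Slc18a2 (GRCm39, chr19:59249238-59284695), which is also carried by platelets and monoaminergic neurons, had 785, 512, 904 and 1133 normalized counts in Ctrl, 1705 and 1870 in LY, 1296, 1702, 1573 and 2548 in AngII, and 345, 669, 562 and 765 in AngII+LY libraries. Every AngII library was above every Ctrl library and above every AngII+LY library, and both LY libraries were above every Ctrl library. The share of all genes that were higher in every AngII than in every Ctrl library was 7.46%. The share lower in every AngII+LY than in every AngII library was 5.66%. For LY against Ctrl this share was not counted. The log2 fold change was 1.09 ± 0.30 (SE, edgeR adjusted p = 0.0632) for AngII against Ctrl and -1.60 ± 0.30 (edgeR adjusted p = 0.0575) for AngII+LY against AngII, both above the threshold of 0.05. The lowest edgeR adjusted p of any gene was 0.0573 in the first of these comparisons and 0.0568 in the second. DESeq2 gave Slc18a2 adjusted p of 0.00682 and 0.000186, where it called 18.6% and 14.5% of the genes with an adjusted p. In LY against Ctrl the log2 fold change was 1.10 ± 0.35 with an edgeR adjusted p of 1.0. AngII 4, the library with the most Slc18a2, also had 96500 normalized counts of the platelet chemokine Ppbp where the other AngII libraries had 5528 to 10710; without AngII 4 the log2 fold change of AngII against Ctrl was 0.87, and the part of platelets in it was not tested.

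Tph1 (GRCm39, chr7:46294065-46321965) had 15.6, 46.7, 25.9 and 23.0 normalized counts in Ctrl, 41.4 and 0 in LY, 0 in all 4 AngII, and 63.2, 3.55, 0 and 7.66 in AngII+LY libraries. Against a floor of 3 counts in each AngII library, which is 4.67 normalized counts on average, the Ctrl mean was at least 5.95-fold higher and the AngII+LY mean at least 3.98-fold higher. The edgeR adjusted p was 0.0845 for AngII against Ctrl and 0.108 for AngII+LY against AngII, and DESeq2 gave no adjusted p. AngII+LY 1 held 46 of the 57 counts of its group, and without it the AngII+LY mean of 3.74 lay under the floor, so that no fold is given. Without Ctrl 2 the Ctrl mean was at least 4.61-fold higher.

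Tph1 and Slc18a2 were then set beside the proteases library by library. The sum of Cpa3, Cma1, Mcpt4, Tpsb2 and Tpsab1 was 1826, 1954, 1392 and 672 normalized counts in Ctrl, 2545 and 549 in LY, 836, 1006, 1118 and 768 in AngII, and 1133, 957, 1126 and 635 in AngII+LY libraries. In 3 Ctrl libraries the sum was above that of all AngII and AngII+LY libraries, and in Ctrl 4 it was lower than in every AngII library. Mean and spread were 1461 ± 578 (SD, n = 4) in Ctrl, 932 ± 159 in AngII and 963 ± 233 in AngII+LY mice. As raw counts the 5 proteases together held 232 counts in AngII 4 and 3317 in LY 1, the lowest and the highest. Slc18a2 showed another order. The library with the lowest sum, LY 2, had the second highest Slc18a2, and 4 of 4 AngII libraries had more Slc18a2 than any Ctrl library while their sums lay inside the Ctrl range. Tph1 was at 0 in all AngII libraries although each of them held 232 to 1477 protease counts. AngII+LY 1, with the most Tph1, had the highest sum of the AngII+LY libraries at 1133. AngII+LY 3 had nearly the same sum, 1126, with Tph1 at 0.

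**Figure D3:**
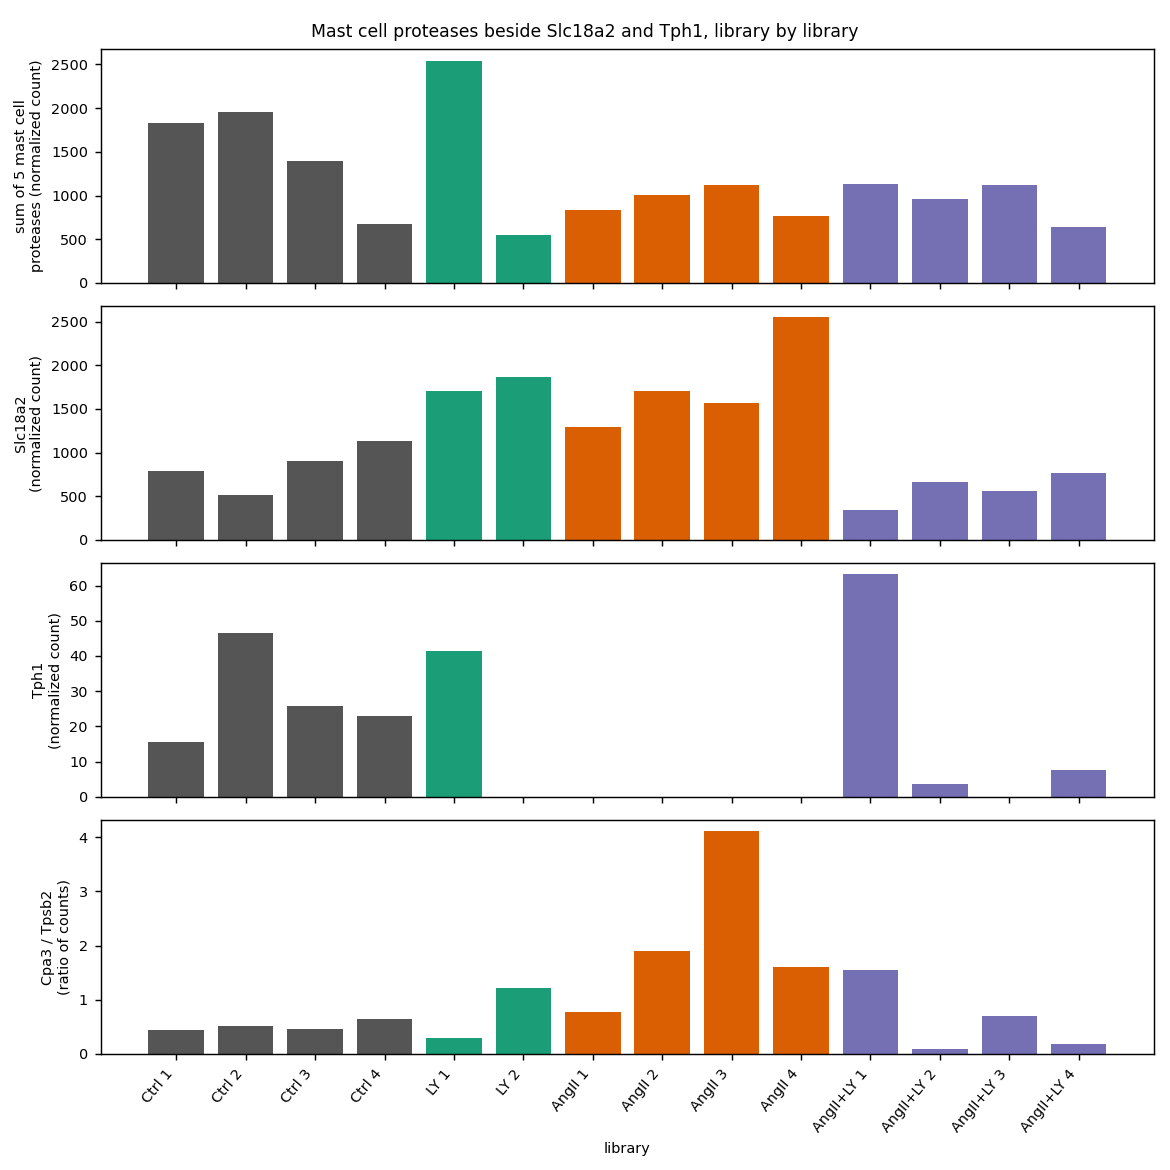
Sum of the 5 mast cell proteases, Slc18a2, Tph1 and the ratio of Cpa3 to Tpsb2 in each of the 14 libraries, coloured by group, with all axes from 0. Slc18a2 was highest in AngII and LY libraries, Tph1 was 0 in AngII libraries, and the protease sum was lowest in LY 2 at 549.

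Over the 14 libraries the log2 level of Tph1 had a Pearson's r of 0.66 with Mcpt4, 0.64 with Tpsb2, 0.50 with Cma1 and 0.01 with Cpa3, and of 0.66 with the mean of the adipocyte markers. After the group means were taken out, r was 0.68 with Mcpt4, 0.36 with Tpsb2 and 0.56 with the adipocyte markers. For Slc18a2, r was 0.11 with Cpa3, -0.11 with Mcpt4, -0.30 with Cma1 and -0.41 with Tpsb2, against 0.80 with the mean of Kitl and Il33, 0.61 with the valve interstitial markers and 0.36 with the platelet markers. With group means taken out the values for Slc18a2 were -0.65 with Cpa3, 0.23 with Kitl and Il33, 0.01 with the interstitial and 0.39 with the platelet markers. The points are libraries of 4 treatments that share depth and composition, and the low counts of Tph1 make its values coarse.

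Among the members themselves, Cma1 and Tpsb2 (r = 0.77), Fcer1a and Hdc (r = 0.77), Mcpt4 and Tpsb2 (r = 0.71), Mcpt4 and Tpsab1 (r = 0.66) and Cma1 and Mcpt4 (r = 0.59) ran most closely. Cpa3 had an r of 0.52 with Ms4a2, 0.40 with Cma1, 0.10 with Mcpt4 and 0.11 with Tpsb2. The mean log2 level of the 5 proteases had an r of 0.41 with Hdc, 0.26 with Fcer1a and with Gata2, 0.20 with Kit and -0.15 with Ms4a2. Of its own parts, r was 0.837 for Mcpt4, 0.815 for Tpsab1, 0.796 for Tpsb2, 0.68 for Cma1 and 0.356 for Cpa3. Tpsab1 was at 0 in 6 of the 14 libraries, so every r with this mean rests in part on a gene near the limit of counting. With the markers of other cells the same mean had an r of 0.50 for macrophages, 0.49 for adipocytes, 0.37 for melanocytes, 0.00 for endothelium and -0.33 for cardiomyocytes, and of 0.34 and 0.18 for macrophages and adipocytes once the group means were taken out. With the further mast cell genes described below r was 0.13, and 0.12 once the group means were taken out. It was 0.09 with the basophil markers and 0.445 with the genes that carry the signal of the IgE receptor. Outside the members, the genes most like the mean of the 5 proteases were Zfyve26, Sde2, Eef1a1, Aoah, Gm6789, Mocos, Gm11739, Osr1, Gabarapl1 and Erfe, with r from 0.832 down to 0.770 over the 14 libraries. With group means taken out they were Gucd1 (r = 0.95), Gm45145, Zfyve26, Eef1a1, Gm9843, Gm6252, Ftl1-ps1, Aoah, Jpt2 and Map4k1, and 3 genes stood in both lists of 10. Both lists are the highest of 19145 tested genes over the same 14 libraries. The r that the highest of so many genes reach without a link was not determined.

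**Figure D4:**
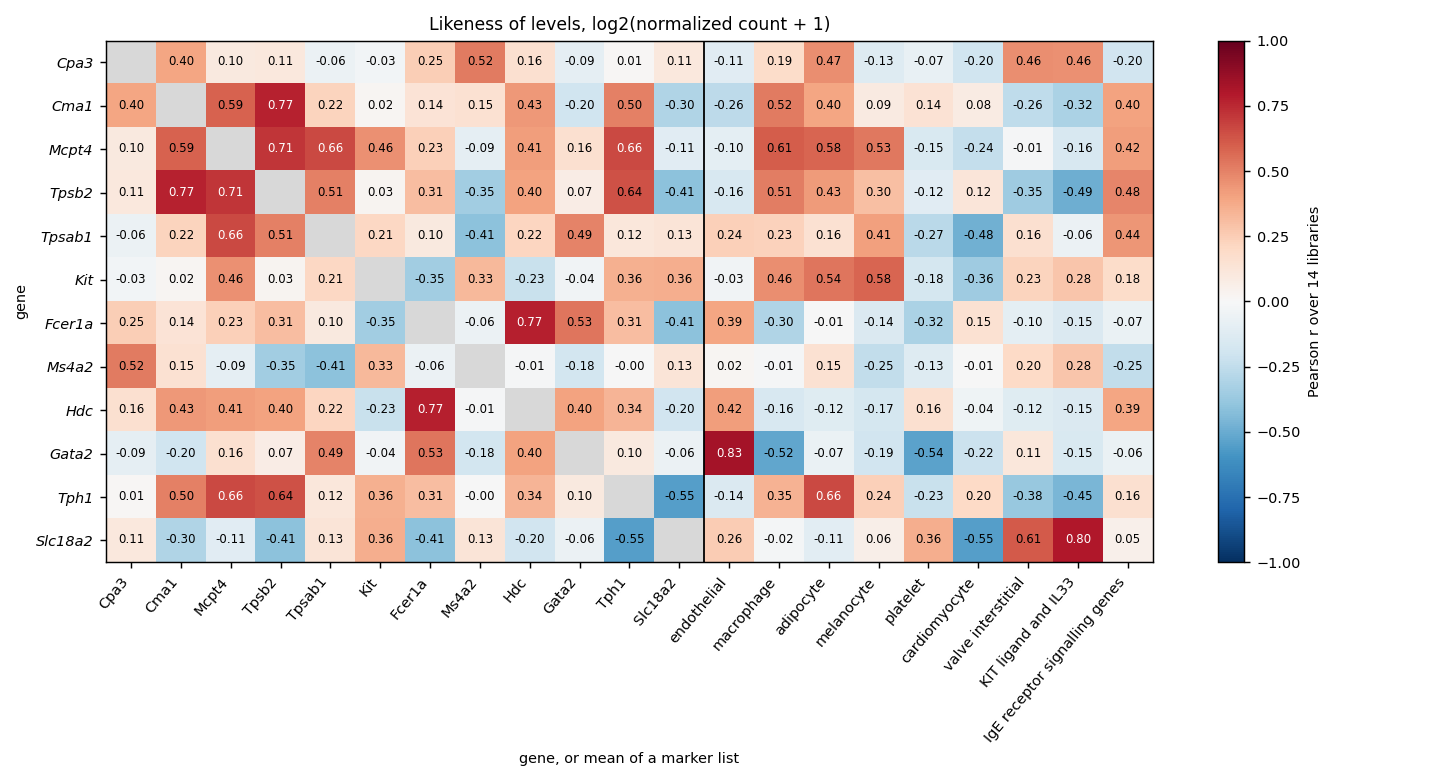
Pearson's r over the 14 libraries between log2(normalized count + 1) of each mast cell gene, Tph1 or Slc18a2 (rows) and the other genes or the mean of a marker list (columns, right of the line). Red is positive and blue negative, and grey cells are a gene with itself. Gata2 stood with the endothelial markers (r = 0.83), Slc18a2 with Kitl and Il33 (r = 0.80), and Cma1 with Tpsb2 (r = 0.77). With group means taken out, which is not drawn, these were 0.89, 0.23 and 0.85.

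Further genes of mast cells were taken from a list of 22, of which 17 passed the count filter and 2, Mcpt1 and Mcpt9, were at 0 in every library. None of the 17 was called by edgeR in any of the 4 comparisons. In AngII against Ctrl 2 of them were higher and 1 lower at an unadjusted p under 0.05, beside 25.2% of all genes in either direction. DESeq2 called Srgn higher and Alox5 lower, where it called 18.6% of the genes with an adjusted p. Srgn, the core protein of the granule proteoglycan serglycin that platelets and other leukocytes also store, had 6427, 3781, 4879 and 12270 normalized counts in Ctrl and 12960, 13160, 26120 and 71830 in AngII libraries. Every AngII library was above every Ctrl library (log2 fold change 2.18 ± 0.53, edgeR adjusted p = 0.0584), and the highest was AngII 4, the library with the most Ppbp. Of all genes tested, 7.46% were higher in every AngII than in every Ctrl library. Without AngII 4 the log2 fold change of Srgn was 1.35. Alox5, the 5-lipoxygenase of leukotriene synthesis, which other leukocytes share, had a mean of 515 ± 359 (SD, n = 4) in Ctrl and 162 ± 83.5 in AngII mice (log2 fold change -1.66 ± 0.54, edgeR adjusted p = 0.0929). Without Ctrl 2 it was -1.08.

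Mrgprb2, the receptor through which basic peptides and some drugs release mast cell granules in mice, was at 0 in all 4 Ctrl and both LY libraries. It had 5.17, 30.0, 201 and 0 normalized counts in AngII and 159, 8.29, 25.9 and 0 in AngII+LY libraries. Against a floor of 3 counts in each Ctrl library, the AngII mean of 58.95 ± 95.4 (SD, n = 4) was at least 22.5-fold higher and the AngII+LY mean at least 18.4-fold higher, with edgeR adjusted p of 0.0867 and 0.294. Each bound rests mostly on 1 library: without AngII 3 the first was at least 4.46-fold and without AngII+LY 1 the second was at least 4.34-fold, and 1 library of each group was at 0. AngII 3, the library with the most Mrgprb2, was also the one with the most Ms4a2 and Cpa3. The remaining 3 genes with the smallest unadjusted p in AngII against Ctrl were Ltc4s, which makes leukotriene C4, at -0.60 ± 0.29, Ndst2, which sulfates heparin, at -0.75 ± 0.36, and Slc45a3 at -0.87 ± 0.44 on the log2 scale, with edgeR adjusted p from 0.216 to 0.227, and without AngII 4 Slc45a3 was at -0.55. In AngII+LY against AngII 4 of the 17 had an unadjusted p under 0.05, all lower in AngII+LY, beside 22.5% of all genes, with edgeR adjusted p from 0.189 up, and DESeq2 called none.

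All 12 genes that carry the signal of the IgE receptor passed the filter, and neither edgeR nor DESeq2 called any of them in the 4 comparisons. In AngII against Ctrl 1 of the 12, the adaptor Lat2, had an unadjusted p under 0.05. Lat2 was lower in every AngII library (109 to 138 normalized counts) than in every Ctrl library (167 to 384), the log2 fold change being -0.94 ± 0.41 (edgeR adjusted p = 0.17) and -0.60 without Ctrl 1. Of all genes tested, 7.56% were lower in every AngII than in every Ctrl library, so Lat2 is 1 of 12 genes beside that share. The kinases Lyn (0.61 ± 0.44) and Syk (-0.48 ± 0.48), the adaptor Lat (0.90 ± 0.70), the calcium channel Orai1 (-0.30 ± 0.22) and the phospholipase Plcg2 (-0.33 ± 0.36) had edgeR adjusted p from 0.409 to 0.610. Several of these folds rest on 1 library. Without AngII 4 Lyn was at -0.31 and Lat at 0.08, without Ctrl 1 Lat was at 1.47, and Syk was at 0.17 without Ctrl 2, at -0.74 without Ctrl 4 and at -0.27 without AngII 1. Without AngII 3 Orai1 was at -0.17 and Plcg2 at -0.11, and without AngII 2 Plcg2 was at -0.52. The median over the 12 was -0.18 in AngII against Ctrl, and -0.30 to -0.07 with single libraries left out (the nearest to 0 without AngII 3). In AngII+LY against AngII it was 0.04, and -0.16 to 0.35 with single libraries left out.

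Kitl, the ligand of KIT, and Il33, an alarmin that acts on mast cells through IL1RL1, come from stromal and endothelial cells. Kitl had 2683, 1922, 2785 and 5015 normalized counts in Ctrl and 4114, 6400, 6181 and 5999 in AngII libraries, with a fitted log2 difference of 0.87 ± 0.27 (SE) and an edgeR adjusted p of 0.0867, and DESeq2 called it (adjusted p = 0.0178). It was higher in 3 of 4 AngII libraries than in every Ctrl library. Il33 had 4473, 3331, 2325 and 3080 in Ctrl, 4631 and 6975 in LY, 3425, 8045, 3538 and 4804 in AngII, and 1777, 1129, 1659 and 1870 in AngII+LY libraries. Every AngII+LY library was below every AngII and every Ctrl library, and the log2 fold change against AngII was -1.62 ± 0.30 (edgeR adjusted p = 0.0568, DESeq2 adjusted p = 6.9e-05). Of all genes tested, 5.66% were lower in every AngII+LY than in every AngII library. The share lower in every AngII+LY than in every Ctrl library was 4.89%. Il1rl1 had a mean of 73.9 ± 20.5 (SD, n = 4) in Ctrl, 102 ± 51.0 in AngII and 106 ± 98.2 in AngII+LY mice.

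The other cell lists were counted the same way in AngII against Ctrl, where 25.2% of all genes had an unadjusted p under 0.05 and DESeq2 called 18.6%. Of 6 adipocyte genes all 6 were lower with a median log2 fold change of -1.69, 4 of them had an unadjusted p under 0.05, and DESeq2 called Cidec and Ucp1 lower. Of 4 platelet genes all 4 were higher with a median of 1.40, 2 had an unadjusted p under 0.05, and DESeq2 called Ppbp higher. Without AngII 4 the platelet median was 0.13. Of 6 macrophage genes 4 were lower with a median of -0.46, 2 had an unadjusted p under 0.05, and DESeq2 called Cd68 and Csf1r lower. The macrophage median ran from -0.89 (without AngII 4) to -0.10 (without Ctrl 2). Of 6 valve interstitial genes 5 were higher with a median of 0.27, 1 had an unadjusted p under 0.05, and DESeq2 called Lum higher. In the remaining lists no gene had an unadjusted p under 0.05 and DESeq2 called none. Of 6 melanocyte genes all 6 were lower with a median of -1.06, which was 0.80 without Ctrl 1 and -3.31 without AngII 2. Of 6 endothelial genes 4 were higher with a median of 0.17, of 6 cardiomyocyte genes 3 were higher with a median of -0.29, and of 5 basophil genes 4 were tested, with a median of -0.18. Their medians ran from 0.04 to 0.35, from -0.57 to 0.09 and from -0.88 to -0.10 with single libraries left out. edgeR called none in these lists, and their part in the values of the mast cell genes was not tested.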

How the data were processed

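RNA of the aortic valve leaflets of 14 mice was measured by bulk RNA-seq, in 4 Ctrl, 2 LY, 4 AngII and 4 AngII+LY libraries. The authors checked reads with FastQC 0.12.1, trimmed them, aligned them to GRCm39 with HISAT2, counted them per gene with featureCounts and deposited the counts. The table is named as normalized, but its values are whole numbers with unequal totals and were treated as raw counts. Among counts from 1 to 20, 60.8% were even, so both mates of a pair may have been counted. The counting strand was not given in the sources used here.

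Genes were named by GENCODE vM39, which left 618 without a symbol. Genes needed a mean of 10 counts, which 19145 reached, and were fitted with the quasi-likelihood test of edgeR 4.0.16 (TMM, 1 fit of 4 groups) in R 4.3.3, after the fit had been tested on simulated data. The simulated counts had a lower dispersion than these data (common dispersion 0.353), so that check does not cover their spread. A call needed a Benjamini-Hochberg adjusted p under 0.05 over all genes and an absolute log2 fold change above 0.5. In single comparisons with groups of this size, the adjusted p comes from the fit over all genes. Log2 levels used a pseudocount of 1, and SE is the standard error of the fit. Correlations are given without p.

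The members and lists were chosen with earlier results of these data known. Named were all members, Tph1 and Slc18a2, of the further mast cell and IgE receptor signalling genes those with an adjusted p under 0.05 or else the 6 with the smallest unadjusted p in AngII against Ctrl, and the 10 genes most like the mean of the 5 proteases. Fcer1g, Il1rl1, Cma2, the genes named from the basophil list, and those named from the other cell lists were named after their values were seen. Alternatives were DESeq2 1.42.0, RLE size factors, no count filter, a loess correction for gene GC content (span 0.3), the replicate number as a block, both of these, fits of the 2 groups compared and leaving out each library. The newer quasi-dispersion of edgeR, and leaving out single libraries for genes outside the members, were added after seeing the data. Floors of 3 counts cover counting error only.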

Additional observations from a re-analysis of the deposited data

Results flagged for a closer look

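The fitted log2 fold change of Slc18a2 with LY272015 was 1.10 without AngII and -1.60 with AngII. Both LY libraries were above every Ctrl library and every AngII+LY library was below every AngII library. The latter was so for 5.66% of all genes tested. The difference of the 2 effects was -2.70 on the log2 scale (SE 0.46), with an adjusted p of 0.295 in edgeR and 0.000405 in DESeq2. The effect without AngII rests on 2 libraries and was called by neither edgeR nor DESeq2.

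A single library lay far from the other 3 of its group, by the ratio of its gap to the range on the log2 scale, in 3 of 36 sets of 4 libraries. Chance flags about 5% of sets of continuous values, a rate that does not hold for sets with several libraries at 0, of which there were 5. Kit was at 2.07 normalized counts in AngII 1, where the other AngII libraries had 141 to 172. Tpsab1 was at 26.0 in AngII+LY 2 and Ms4a2 at 10.98 in AngII+LY 1, where the other 3 libraries of that group were at 0, so that for both genes any value above 0 would have stood apart.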

How the results depend on the processing

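Members called stayed at 0 in all 4 comparisons under every alternative, except that DESeq2 called 1, Tpsb2, in AngII against Ctrl. Over all genes, edgeR called 0 in each comparison, and DESeq2 called 2648 (AngII against Ctrl), 2062 (AngII+LY against AngII), 343 (AngII+LY against Ctrl), 20 (LY against Ctrl) and 210 (difference of LY272015 effects). Without the count filter edgeR called 123, 1 and 13 in the first 3, and its newer quasi-dispersion called 555 and 176 in the first 2. Leaving out single libraries gave 0 to 1726 in the first (1726 without AngII 1, 799 without Ctrl 4, 360 without AngII 2), 0 to 842 in the second (842 without AngII 1, 2 without Ctrl 4, LY 1 or AngII+LY 1) and 0 to 3 in the third (3 without AngII+LY 4, 1 without Ctrl 2). The cause was not tested. Where 1 LY library was left out, the other was assumed to vary like the rest.

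With the replicate number as a block, 0 genes and 0 members were called in each comparison, and with the block and GC correction together 1 gene was called for AngII+LY against Ctrl. Ctrl, AngII and AngII+LY libraries with the same number did not deviate together (r from -0.128 to 0.0897 over 12 pairs). Pairs with different numbers and pairs with LY libraries were not compared, so what the numbers stand for was not determined.

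Of 1056 log2 fold changes of members and companions under the alternatives, 1031 moved by less than the spread between replicates and 63 changed sign. The GC correction moved the median of all genes by 0.18 for AngII against Ctrl and by 0.19 for AngII+LY against Ctrl; relative to this shift the fold changes of the members there are lower. For Slc18a2 the adjusted p ran from 0.00682 to 0.213 in AngII against Ctrl and from 0.000186 to 0.161 in AngII+LY against AngII. Tpsab1, Fcer1a, Ms4a2 and Tph1, with mean counts under 20, are limited by depth.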
